A study of Mus musculus with 6 samples.

Results

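Genes that set how much lipoprotein triglyceride the heart can break down, and how much of the released fatty acid it can take up, were followed in the myocardium of mice given PBS or STZ. The 8 genes were chosen by name as members of this pathway, with earlier results of these data known: Angptl4, Lpl, Gpihbp1, Lmf1, Vldlr, Cd36, Fabp3 and Slc27a1. They are 8 of the 55401 genes in the deposited tables, and all 8 were among the 11556 that passed the filter on low values.

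Lipoprotein lipase, the product of Lpl, is made in heart muscle cells and other parenchymal cells, folded in the endoplasmic reticulum with the help of the chaperone Lmf1, and carried across the capillary wall by Gpihbp1, which holds it on the luminal face. There it releases fatty acids from triglyceride-rich lipoproteins, and the secreted protein Angptl4 inactivates it. Vldlr binds the same lipoproteins, Cd36 and Slc27a1 (the fatty acid transport protein FATP1) bring fatty acids into the cell, and Fabp3 carries them through the cytosol. The working heart draws most of its energy from fatty acids, and STZ (streptozotocin) kills insulin-producing cells and is used to make rodents diabetic.

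All mice were wild-type males, and both groups carry the time label of 8 weeks, with the starting event not given. The control group received PBS injection and the other group STZ injection, with 3 libraries each; the labels give no dose, strain or age, nor whether each library is 1 mouse, so the p-values cover the spread between libraries, which may be technical. The values are FPKM (fragments per kilobase of exon, scaled to the mapped fragments of the library), so they can be compared between genes, and sums over all genes ran from 531384 to 589719 in the 5 complete libraries. The file of PBS library 3 lists 7711 genes (13.9%) and was left out of the test; it lists 7 of the 8 genes, all but Slc27a1, and its values are given beside the others. The number of reads behind each value is unknown, so no counting interval is given.

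The libraries also differed in ways that could touch these genes. Mitochondrial genes took 47.3% and 47.1% of the FPKM in PBS libraries 1 and 2 and 42.0% to 45.5% in the STZ libraries. The atrial light chain Myl7 was at 262, 37.9 and 0.21 FPKM in PBS libraries 1, 2 and 3. In STZ libraries 1, 2 and 3 it was at 357, 73.7 and 0.28 FPKM. The share of atrial transcripts thus varied within both groups, and Myl7 fell in the same order by library number in both. Summed red blood cell markers reached 959 FPKM in STZ library 2 against 283 to 361 FPKM in the other complete libraries. Of 8 cardiomyocyte markers, all were tested, 1 fell and 0 rose, beside 2.17% and 3.64% of all genes tested. The 1 that fell was Actc1, cardiac actin, by 0.70 on the log2 scale (adjusted p = 0.0282 by limma). Only 1 of the 8 had a positive change, beside 6585 of the 11556 genes tested. The median change of the 8 markers was -0.24 on the log2(FPKM + 1) scale. The call on Actc1 was lost without PBS library 1 (0.237), PBS library 2 (0.204), STZ library 2 (0.0589) or STZ library 3 (0.0565) and under quantile normalization (-0.22, 0.211). The 8 markers had a summed level of 12576 and 13321 FPKM in the PBS libraries and 9529 to 10954 FPKM in the STZ libraries. Transcripts that define heart muscle were thus abundant in every complete library, as the tissue label says.

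With STZ, Angptl4, Slc27a1, Gpihbp1 and Fabp3 rose, while Lpl itself did not pass the test. In FPKM the STZ mean was 17.3 times the PBS mean for Angptl4, 2.59 times for Slc27a1, 2.46 times for Gpihbp1 and 1.38 times for Fabp3. For Lpl the ratio was 0.954. By limma on log2(FPKM + 1), at a Benjamini-Hochberg adjusted p under 0.05, taken over all genes tested, 4 of the 8 genes passed with higher values in STZ, beside 3.64% of all genes tested. In the other direction 0 passed, beside 2.17% of all genes. The values of the groups did not overlap for 5 genes higher in STZ, beside 28.7% of all genes, and for 1 gene lower in STZ, beside 18.8%. With PBS library 3 added where it lists a gene, 5 of the 8 passed with higher values, beside 6.38% of all genes. The median change of the 8 genes was 0.55 on the log2(FPKM + 1) scale, against 0.06 over all genes tested. That scale understates the change of genes at low levels.

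**Figure D1:**
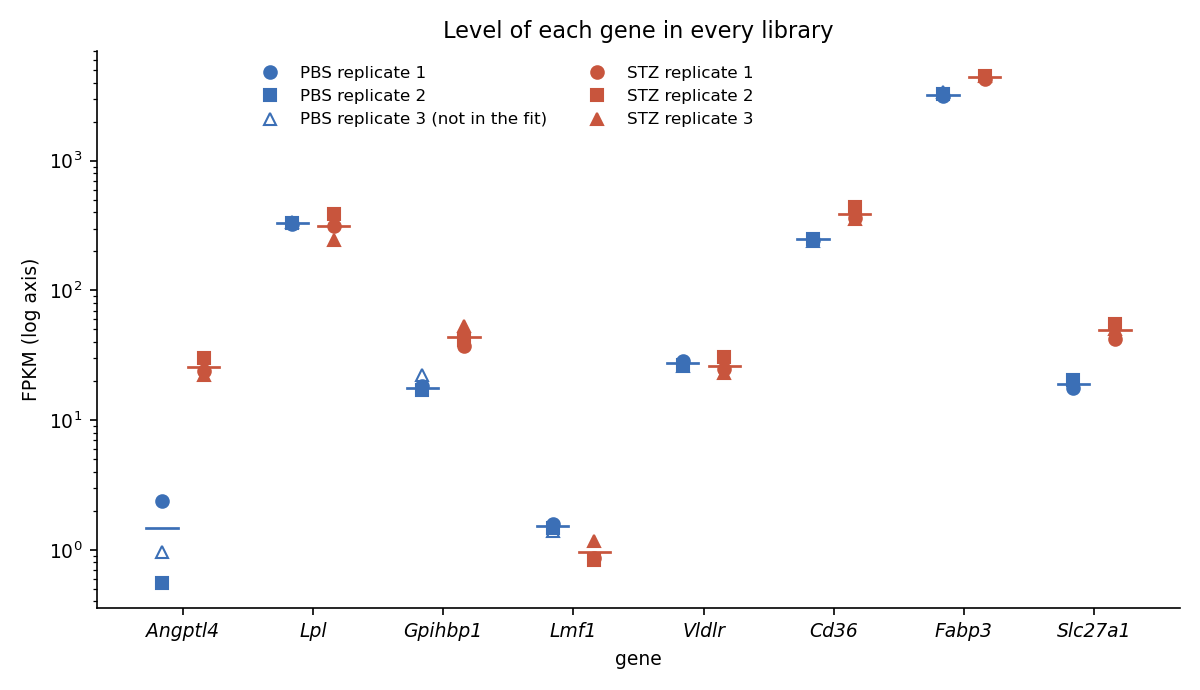
FPKM on a log axis for each of the 8 genes in every library, with PBS in blue and STZ in red, horizontal lines at the mean of the 2 PBS and 3 STZ libraries tested and PBS replicate 3 as an open triangle. Angptl4 lies between 0.56 and 2.38 FPKM in the PBS libraries and between 22.2 and 30.3 FPKM in the STZ libraries, while the points of Lpl and Vldlr overlap between groups.

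The levels spanned more than 3 orders of magnitude within the pathway. In the PBS libraries the order in FPKM was Fabp3, Lpl, Cd36, Vldlr, Slc27a1, Gpihbp1, Lmf1 and Angptl4. The ranges of Slc27a1 and Gpihbp1 overlapped, as did those of Lmf1 and Angptl4. In the STZ libraries the order was Fabp3, Cd36, Lpl, Slc27a1, Gpihbp1, Vldlr, Angptl4 and Lmf1. There the ranges of Cd36 and Lpl overlapped, as did those of Slc27a1 and Gpihbp1 and those of Vldlr and Angptl4. Angptl4 moved from rank 9472 to rank 1158 among all genes listed, and reached the range of Vldlr.

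The enzyme comes first. Lpl was at 327, 334 and 340.05 FPKM in PBS libraries 1, 2 and 3 and at 314, 387 and 245 FPKM in STZ libraries 1, 2 and 3. The PBS values lay close together, the STZ values spread to both sides of them, and the groups overlapped. The mean was 331 ± 4.5 FPKM in PBS (SD, n = 2) and 315 ± 71.1 FPKM in STZ (SD, n = 3), a change of -0.09 ± 0.20 (SE) on the log2(FPKM + 1) scale that did not pass (limma, adjusted p = 0.796). The 95% interval ran from -0.57 to 0.39, so a change of either sign within it is compatible with these libraries. Without STZ library 3, the lowest, the difference was 0.076.

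Lmf1, the chaperone that the lipase needs to fold, was at 1.59, 1.48 and 1.40 FPKM in PBS libraries 1, 2 and 3 and at 0.87, 0.84 and 1.17 FPKM in STZ libraries 1, 2 and 3. Every STZ value was below every PBS value. The mean was 1.54 ± 0.0778 FPKM in PBS (SD, n = 2) and 0.96 ± 0.182 FPKM in STZ (SD, n = 3). The difference of -0.37 ± 0.14 (SE) on the log2(FPKM + 1) scale did not pass after adjustment (adjusted p = 0.161 by limma, unadjusted p = 0.0379), nor in any of the 16 alternative analyses that tested it. These levels are near the filter of 1 FPKM.

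Angptl4 showed the largest change of the 8 genes. It was at 2.38, 0.56 and 0.96 FPKM in PBS libraries 1, 2 and 3 and at 23.9, 30.3 and 22.2 FPKM in STZ libraries 1, 2 and 3. Every STZ library was far above every PBS library, and the PBS libraries differed among themselves more, in proportion, than the STZ libraries did. The mean went from 1.47 ± 1.29 FPKM (SD, n = 2) to 25.5 ± 4.29 FPKM (SD, n = 3), a rise of 3.52 ± 0.33 (SE) on the log2(FPKM + 1) scale with a 95% interval of 2.72 to 4.31 (limma, adjusted p = 0.00806). With PBS library 3 added the rise was 3.59 (limma, adjusted p = 0.00189). In FPKM the ratio of 17.3 rests on low PBS values, and was 45.5 without PBS library 1 and 10.7 without PBS library 2. Leaving out any 1 library kept the call, and the rise then lay between 2.96 (without PBS library 2) and 4.07 (without PBS library 1). With the library number as a block the rise was 3.60 and the call was lost (adjusted p = 0.0537 by limma). In that fit STZ library 3 has no PBS partner and adds nothing to the estimate. The atrial gene Myl7 was at 262, 37.9 and 0.21 FPKM in PBS libraries 1, 2 and 3, where Angptl4 was at 2.38, 0.56 and 0.96 FPKM. It was at 357, 73.7 and 0.28 FPKM in STZ libraries 1, 2 and 3, where Angptl4 was at 23.9, 30.3 and 22.2 FPKM. The part of atrial tissue in the level of Angptl4 was not tested.

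Gpihbp1, the capillary anchor of the lipase, was at 18.2, 17.2 and 22.2 FPKM in PBS libraries 1, 2 and 3 and at 37.0, 41.3 and 52.7 FPKM in STZ libraries 1, 2 and 3. The lowest STZ value was above the highest PBS value. The mean went from 17.7 ± 0.728 FPKM (SD, n = 2) to 43.7 ± 8.13 FPKM (SD, n = 3), a rise of 1.24 ± 0.17 (SE) on the log2(FPKM + 1) scale with a 95% interval of 0.82 to 1.66 (limma, adjusted p = 0.0196). The call was kept without any 1 STZ library, and was lost without PBS library 1 (1.28, adjusted p = 0.136 by limma) or PBS library 2 (1.2, adjusted p = 0.140 by limma), fits in which the lone PBS library is assumed to vary like the STZ libraries. It was also lost with no filter on low values (adjusted p = 0.0709 by limma) and with the library number as a block (1.10, adjusted p = 0.0578 by limma).

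Set against the lipase within each library, both partners were higher in every STZ library than in any PBS library. Angptl4 stood at 0.727%, 0.168% and 0.282% of the Lpl FPKM in PBS libraries 1, 2 and 3 and at 7.61%, 7.84% and 9.07% in STZ libraries 1, 2 and 3. Gpihbp1 stood at 5.57%, 5.16% and 6.53% of Lpl in the PBS libraries and at 11.8%, 10.7% and 21.5% in the STZ libraries. In both cases the groups did not overlap, and STZ library 3, the lowest in Lpl, had the highest ratio. The difference in the log2 ratio, STZ minus PBS, was 3.61 for Angptl4 to Lpl and 1.33 for Gpihbp1 to Lpl. For each ratio the exact permutation test, two-sided, gave p = 0.2, the smallest that 2 against 3 libraries can give. With PBS library 3 the differences were 3.70 and 1.24, each with p = 0.1 in the exact permutation test, two-sided, the smallest that 3 against 3 can give. The percentages carry no pseudocount, while the log2 ratios were taken on FPKM + 1. With a pseudocount of 0.1 the difference for Angptl4 to Lpl was 4.40.

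**Figure D2:**
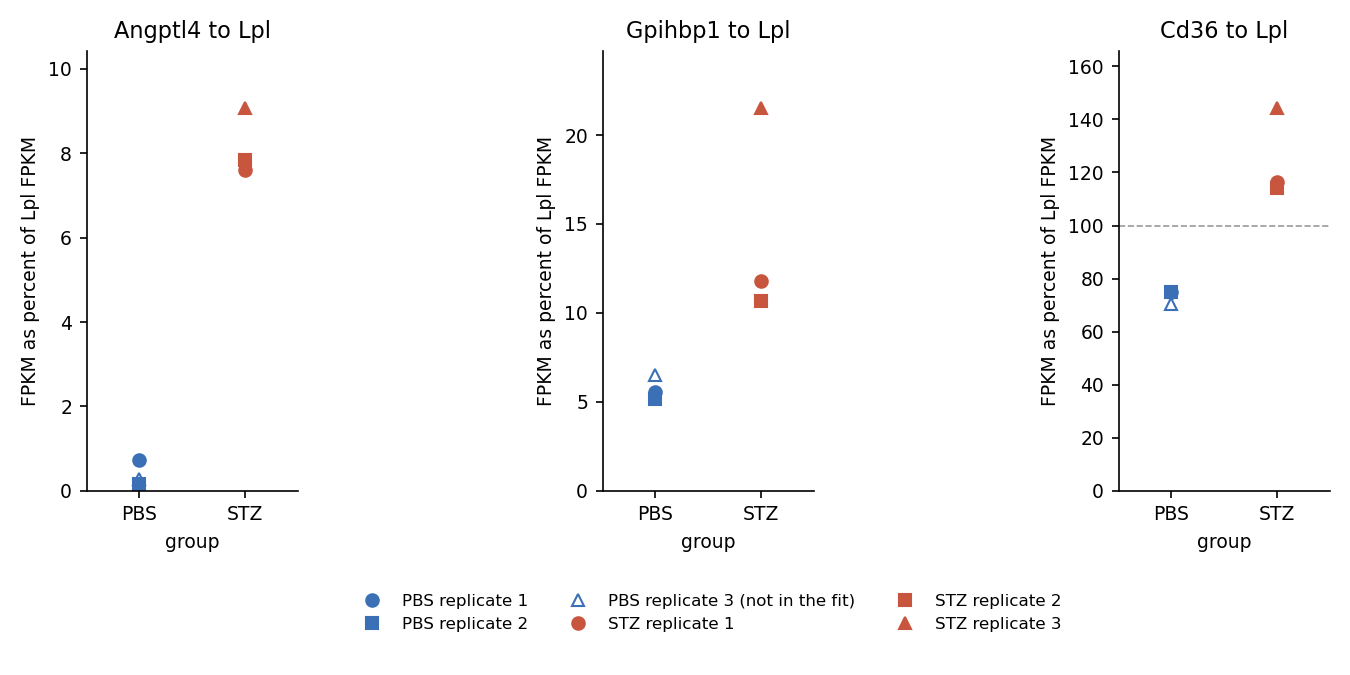
FPKM of Angptl4, Gpihbp1 and Cd36 as a percent of the FPKM of Lpl in the same library, by group, with 1 point per library and PBS replicate 3 as an open triangle; the dashed line marks equal FPKM. Angptl4 is at most 0.727% of Lpl in PBS and at least 7.61% in STZ, and Cd36 lies below Lpl in the PBS libraries and above it in the STZ libraries.

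Gpihbp1 is made by capillary endothelial cells, so it was set beside 13 endothelial markers. In bulk tissue more cells of a type and more RNA per cell cannot be told apart. The markers summed to 193 and 194 FPKM in PBS libraries 1 and 2 and to 232, 283 and 311 FPKM in STZ libraries 1, 2 and 3. Of the 13, 1 rose (Car4) and 0 fell, beside 3.64% and 2.17% of all genes. A positive change was seen in 10 of the 13, beside 6585 of the 11556 genes tested. The median of the 13 was 0.40 on the log2(FPKM + 1) scale. Car4, a carbonic anhydrase on the face of heart capillaries, went from 7.36 ± 0.0636 FPKM (SD, n = 2) to 28.8 ± 9.40 FPKM (SD, n = 3), a rise of 1.78 ± 0.28 (SE; limma, adjusted p = 0.0256), a call lost without PBS library 1 (adjusted p = 0.147), PBS library 2 (0.140) or STZ library 2 (0.0612).

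The markers did not move as a block. The 4 with the highest mean over both groups that did not pass were the cadherin Cdh5, the adhesion molecules Pecam1 and Esam, and Rgcc, a gene marking capillaries. Cdh5 was at 34.2 and 37.0 FPKM in PBS libraries 1 and 2 and at 35.8, 38.0 and 44.2 FPKM in the STZ libraries. Rgcc was at 16.1 and 21.02 FPKM in PBS and at 35.6, 28.0 and 54.7 FPKM in STZ (adjusted p = 0.0904 by limma). Pecam1 was at 19.8 and 17.97 FPKM in PBS and at 24.8, 25.1 and 25.6 FPKM in STZ (adjusted p = 0.0962 by limma), and Esam at 17.1 and 17.05 FPKM in PBS and at 23.6, 25.3 and 32.4 FPKM in STZ (adjusted p = 0.0773 by limma). The groups overlapped for Cdh5 and did not for the other 3. Markers with a negative change, named after their values were seen, were Kdr, Tie1 and Tek, all receptors of endothelial cells. Kdr was at 22.1 and 21.9 FPKM in PBS and at 16.8, 20.7 and 21.4 FPKM in STZ, lower in every STZ library (adjusted p = 0.499 by limma). The changes of Tie1 and Tek were -0.11 and -0.10 on the log2(FPKM + 1) scale, and neither passed.

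The level of Gpihbp1 minus the mean of the 13 markers, on the log2(FPKM + 1) scale, was 0.49 and 0.43 in PBS libraries 1 and 2 and 1.25, 1.13 and 1.39 in STZ libraries 1, 2 and 3. The STZ values were all above the PBS values, with a difference of 0.80 and p = 0.2 in the exact permutation test, two-sided, the smallest possible. Over the 7 markers that PBS library 3 lists, Car4 and Rgcc among them, the difference was 0.55 in the same 5 libraries, a comparison chosen after the data were seen, and 0.44 with PBS library 3 added. The size of the difference therefore depends on which markers stand for the endothelium. How far the summed marker level accounts for the rise of Gpihbp1 was not tested.

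**Figure D3:**
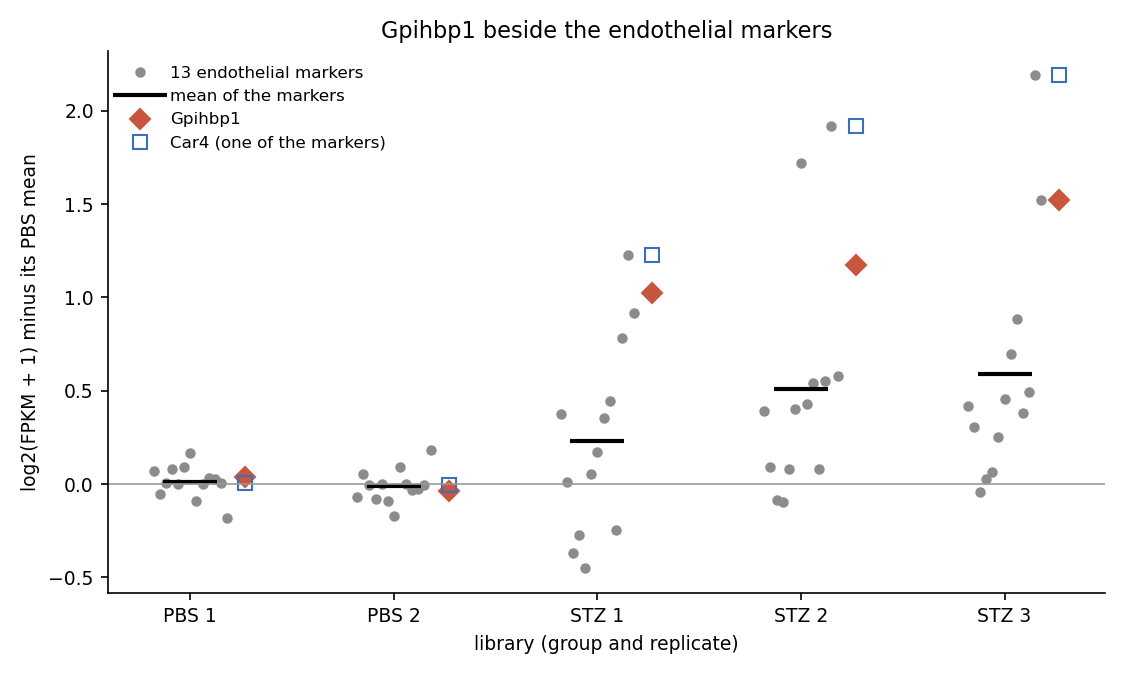
Level of Gpihbp1 (red diamonds), of 13 endothelial markers (grey points), of their mean (black bars) and of Car4 (blue squares) in each library tested, as log2(FPKM + 1) minus the gene's own mean over PBS libraries 1 and 2. Gpihbp1 lies above the marker mean in each of the 3 STZ libraries, and Car4 lies above Gpihbp1 there.

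Vldlr, the receptor for triglyceride-rich lipoproteins, was at 28.7, 26.7 and 26.1 FPKM in PBS libraries 1, 2 and 3 and at 24.6, 30.5 and 23.1 FPKM in STZ libraries 1, 2 and 3. The groups overlapped. The means were 27.7 ± 1.38 FPKM in PBS (SD, n = 2) and 26.1 ± 3.88 FPKM in STZ (SD, n = 3), with a change of -0.09 ± 0.15 (SE) on the log2(FPKM + 1) scale, a 95% interval of -0.46 to 0.28, and an adjusted p of 0.739 by limma. For Vldlr, as for Lpl, none of the 17 alternative analyses gave a call.

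At the cell membrane, Slc27a1 and Cd36 both had higher values in every STZ library. Slc27a1 was at 17.8 and 20.5 FPKM in PBS libraries 1 and 2 and at 42.3, 55.4 and 50.8 FPKM in STZ libraries 1, 2 and 3. The mean went from 19.1 ± 1.9 FPKM (SD, n = 2) to 49.5 ± 6.65 FPKM (SD, n = 3), a rise of 1.32 ± 0.16 (SE) on the log2(FPKM + 1) scale with a 95% interval of 0.94 to 1.70 (limma, adjusted p = 0.0139). In PBS the gene lay below Vldlr in level, and in STZ above it. The call was kept without any 1 STZ library and was lost without PBS library 1 (1.22, adjusted p = 0.116 by limma), without PBS library 2 (1.42, adjusted p = 0.0882 by limma) and with no filter on low values (adjusted p = 0.0597 by limma).

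Cd36, the main fatty acid translocase of heart muscle and capillaries, was at 246, 250.4 and 239.95 FPKM in PBS libraries 1, 2 and 3 and at 365, 442 and 354 FPKM in STZ libraries 1, 2 and 3. The groups did not overlap, and STZ library 2 was the highest. The mean was 248 ± 3.20 FPKM in PBS (SD, n = 2) and 387 ± 47.9 FPKM in STZ (SD, n = 3), a ratio of 1.56. The difference of 0.63 ± 0.14 (SE) on the log2(FPKM + 1) scale, with a 95% interval of 0.30 to 0.96, missed the threshold (limma, adjusted p = 0.0508). It passed with PBS library 3 added (0.65, adjusted p = 0.0178 by limma) and in 3 other alternatives, a filter at 5 FPKM (0.0381), quantile normalization (0.0412) and robust eBayes (0.047), of 17 in all. Over those 17 the adjusted p from limma ran from 0.0178 to 0.314.

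Against Lpl, Cd36 changed places. It stood at 75.1%, 75.0% and 70.6% of the Lpl FPKM in PBS libraries 1, 2 and 3 and at 116%, 114% and 144% in STZ libraries 1, 2 and 3. Lpl was the more abundant of the pair in each PBS library and Cd36 in each STZ library. This ratio was chosen after the values were seen and was not tested.

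The promoters of these membrane genes are shown because both had higher values in every STZ library. The RefSeq table of GRCm38.p6 used here matched 5 of the 8 genes (Lmf1, Vldlr, Cd36, Fabp3 and Slc27a1), with 8 start sites. It gives 250 bases before and 50 after each start, and the 250 before are printed for Cd36 (chr5:17835897-17836146, minus strand) and for the first of 3 starts of Slc27a1 (chr8:71568621-71568870, plus strand), 5′ to 3′ along the gene. Capitals mark motif matches.
Cd36: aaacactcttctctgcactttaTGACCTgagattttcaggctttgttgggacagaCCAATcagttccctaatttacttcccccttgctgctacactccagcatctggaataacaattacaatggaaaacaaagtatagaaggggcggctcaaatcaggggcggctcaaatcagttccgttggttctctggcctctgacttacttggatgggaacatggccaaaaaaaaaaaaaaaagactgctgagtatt
Slc27a1: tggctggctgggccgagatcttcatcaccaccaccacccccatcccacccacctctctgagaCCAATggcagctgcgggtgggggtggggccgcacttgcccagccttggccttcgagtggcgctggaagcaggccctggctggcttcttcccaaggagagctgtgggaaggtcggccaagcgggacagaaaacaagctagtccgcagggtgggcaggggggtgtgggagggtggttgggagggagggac

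Both windows hold CCAAT, at base -195 from the start in Cd36 and at base -188 in Slc27a1. The Cd36 window also holds TGACCT at base -228, which is the nuclear receptor half-site AGGTCA read on the other strand. Searched on both strands, CCAAT was in 37.4% and AGGTCA in 16.3% of all 32851 windows of the same length in the table, and in 4 and 1 of the 8 windows of these genes. The hypoxia core ACGTG was in 1 of the 8 and in 19.6% of all. The DR1 element AGGNCANAGGNCA, which peroxisome proliferator-activated receptors bind, was in 0 of the 8 windows and in 0.381% of all. The FoxO site GTAAACA, the glucocorticoid element GNACANNNTGTNC, the octamer ATTTGCAT and TATAAA were in 0 of the 8, against 3.65%, 0.475%, 1.74% and 13.6% of all. The half-site can lie within the DR1 element; a match is a run of letters and no measure of binding.

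Fabp3, the fatty acid binding protein of heart muscle, was the most abundant of the 8 genes. It was at 3136, 3284.5 and 3361 FPKM in PBS libraries 1, 2 and 3 and at 4272, 4481 and 4496 FPKM in STZ libraries 1, 2 and 3. Values lay close together within each group, and the groups did not overlap. The mean went from 3210.2 ± 105 FPKM (SD, n = 2) to 4417 ± 125 FPKM (SD, n = 3), a rise of 0.46 ± 0.09 (SE) on the log2(FPKM + 1) scale with a 95% interval of 0.24 to 0.68 (limma, adjusted p = 0.044).

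The call on Fabp3 was the least stable of the 4. It was lost without PBS library 1 (adjusted p = 0.358 by limma), PBS library 2 (0.272), STZ library 1 (0.061), STZ library 2 (0.0869) or STZ library 3 (0.0585). It was also lost after centring on the median (0.39, adjusted p = 0.0651 by limma), without the trend (0.0752) and with no filter on low values (0.287). With the library number as a block it was lost too (0.45, adjusted p = 0.0819 by limma). Quantile normalization gave 0.91 (adjusted p = 0.0125 by limma). The direction was the same in all 17 alternatives.

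Fabp3 has a processed pseudogene, Fabp3-ps1, that could share its reads. The pseudogene, at chr10:86731987-86732388 on the minus strand (GRCm38), matched the coding sequence of Fabp3 in 399 of 402 bases (99.3%), with 256 bases as the longest run without a difference. Counted from 1 at the A of the Fabp3 start codon, with the base of Fabp3 first, the differences are A40T, C297T and G334A. The stretches around them are shown from the GENCODE M21 transcripts, 5′ to 3′, bases 20 to 60 and then 277 to 354, with the differing bases in capitals, since within the coding sequence only reads over them separate the copies.
Fabp3: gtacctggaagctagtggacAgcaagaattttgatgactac
Fabp3-ps1: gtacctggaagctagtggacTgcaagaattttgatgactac
Fabp3: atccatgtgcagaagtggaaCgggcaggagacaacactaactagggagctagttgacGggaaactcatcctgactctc
Fabp3-ps1: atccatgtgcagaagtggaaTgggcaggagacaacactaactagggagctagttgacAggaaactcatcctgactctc

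Fabp3-ps1 was listed at 112 and 105 FPKM in PBS libraries 1 and 2 and at 159.9, 169.6 and 167 FPKM in STZ libraries 1, 2 and 3. It rose by 0.60 ± 0.11 (SE) on the log2(FPKM + 1) scale (limma, adjusted p = 0.0368), the direction of Fabp3. Its FPKM was 3.57% and 3.20% of that of Fabp3 in PBS libraries 1 and 2 and 3.72% to 3.79% in the STZ libraries. How reads were divided between the copies is not given in the sources used here, so the levels of both copies are uncertain. In addition, 19.6% of the exon length of Fabp3 lies over genes of the other strand, Zcchc17 and Gm10570. Zcchc17 was at 4.02 and 4.4 FPKM in PBS libraries 1 and 2 and at 2.83 to 3.37 FPKM in STZ, and Gm10570 at 0.57 FPKM or less. No exon of the other 7 genes overlaps an exon of another gene.

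**Figure D4:**
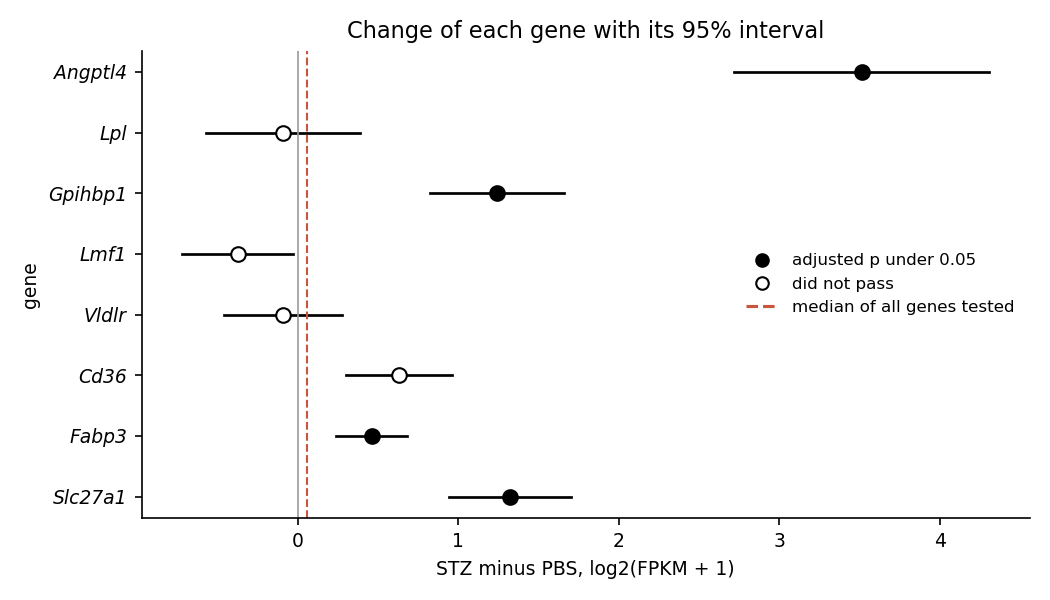
Change of each gene, STZ minus PBS, on the log2(FPKM + 1) scale (points) with its 95% interval from limma (lines), filled where the adjusted p is under 0.05; the dashed line is the median of all genes tested, 0.06. Angptl4 stands at 3.52, Slc27a1 and Gpihbp1 at 1.32 and 1.24, and the intervals of Lpl and Vldlr span 0.

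The 8 genes lie on 6 chromosomes (GRCm38, GENCODE M21). Angptl4 (ENSMUSG00000002289) is at chr17:33773750-33781830, minus strand, and Lmf1 (ENSMUSG00000002279) on the same chromosome at chr17:25579085-25662826, plus strand. Lpl (ENSMUSG00000015568) is at chr8:68880491-68907448 and Slc27a1 (ENSMUSG00000031808) at chr8:71568882-71587302, both on the plus strand. Gpihbp1 (ENSMUSG00000022579) is at chr15:75596628-75599481, plus strand, and Vldlr (ENSMUSG00000024924) at chr19:27216484-27254231, plus strand. Cd36 (ENSMUSG00000002944) is at chr5:17781690-17888801, minus strand, and Fabp3 (ENSMUSG00000028773) at chr4:130308595-130315463, plus strand. FPKM are given per gene, so no exon, intron or UTR is resolved.

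Of 15 other genes that act on the lipase, 8 were tested, 0 rose and 1 fell (beside 3.64% and 2.17% of all genes), with a median of -0.01. The gene that fell was Pcsk6, a proprotein convertase of the family that can cleave the lipase and its inhibitors. It was at 12.4 and 11.7 FPKM in PBS libraries 1 and 2 and at 6.69, 6.26 and 5.83 FPKM in STZ libraries 1, 2 and 3. It fell by 0.85 on the log2(FPKM + 1) scale (SE 0.12; limma, adjusted p = 0.0201), a call lost without PBS library 1 (0.182) or PBS library 2 (0.141). The convertase Furin was at 9.30 FPKM on average in PBS and 9.90 FPKM in STZ (adjusted p = 0.775 by limma), and the partner Sel1l, which helps the lipase leave the endoplasmic reticulum, at 6.04 and 5.53 FPKM (0.659). The 7 not tested include Angptl8, known to act on the lipase with other proteins of its family, and the apolipoproteins Apoc2, Apoc3 and Apoa5, each under 1 FPKM in every library that lists it.

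Among 12 lipoprotein receptors and their partners, 7 were tested, 1 rose and 0 fell (beside 3.64% and 2.17% of all genes), with a median of 0.12. The gene that rose was Mylip, a ubiquitin ligase known to mark the LDL and VLDL receptors for breakdown. It was at 3.53 and 4.18 FPKM in PBS libraries 1 and 2 and at 13.8, 12.4 and 16.5 FPKM in STZ libraries 1, 2 and 3, a rise of 1.64 ± 0.16 (SE) on the log2(FPKM + 1) scale (limma, adjusted p = 0.00806). The call was lost without PBS library 1 (0.0856) or PBS library 2 (0.0628). Its known target Vldlr did not pass the test at the RNA level. Apoe, the most abundant of the list, was at 135 and 79.1 FPKM in PBS libraries 1 and 2 and at 101, 150.4 and 128 FPKM in the STZ libraries, with overlapping groups.

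Among 22 other genes of fatty acid transport and activation, 15 were tested, 3 rose and 0 fell (beside 3.64% and 2.17% of all genes), with a median of 0.13. Fabp4, the binding protein of capillaries and fat cells, was at 73.1 and 79.96 FPKM in PBS libraries 1 and 2 and at 173, 214 and 265 FPKM in STZ libraries 1, 2 and 3. It rose by 1.47 ± 0.19 (SE) on the log2(FPKM + 1) scale (limma, adjusted p = 0.017), a call lost without PBS library 1 (0.133) or PBS library 2 (0.110). Relative to Fabp3 it went from 2.33% and 2.43% in the PBS libraries to 4.05%, 4.77% and 5.89% in the STZ libraries.

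Dbi and Zdhhc4 were the others that rose. Dbi, the acyl-CoA binding protein, went from 35.2 ± 3.62 FPKM (SD, n = 2) to 61.6 ± 2.74 FPKM (SD, n = 3), a rise of 0.79 ± 0.13 (SE; limma, adjusted p = 0.0261). Zdhhc4, an enzyme that attaches palmitate to Cd36, went from 3.11 ± 0.0283 FPKM (SD, n = 2) to 6.12 ± 1.18 FPKM (SD, n = 3), a rise of 0.78 ± 0.16 (SE; limma, adjusted p = 0.0491). The call on Dbi was lost without PBS library 1 (0.236), PBS library 2 (0.142), STZ library 1 (0.0534) or STZ library 2 (0.0534), and that on Zdhhc4 without PBS library 1 (0.267), PBS library 2 (0.232), STZ library 1 (0.0953) or STZ library 3 (0.0712). Acsl1, the main acyl-CoA synthetase of the heart, was at 72.4 and 70.9 FPKM in PBS and at 91.3, 91.6 and 58.1 FPKM in STZ, with overlapping groups. Of the other transporters of the Slc27a family, Slc27a4 was at 5.76 and 5.53 FPKM in PBS and at 3.44, 5.82 and 3.56 FPKM in STZ, and Slc27a2, Slc27a3, Slc27a5 and Slc27a6 were under 1 FPKM throughout.

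**Figure D5:**
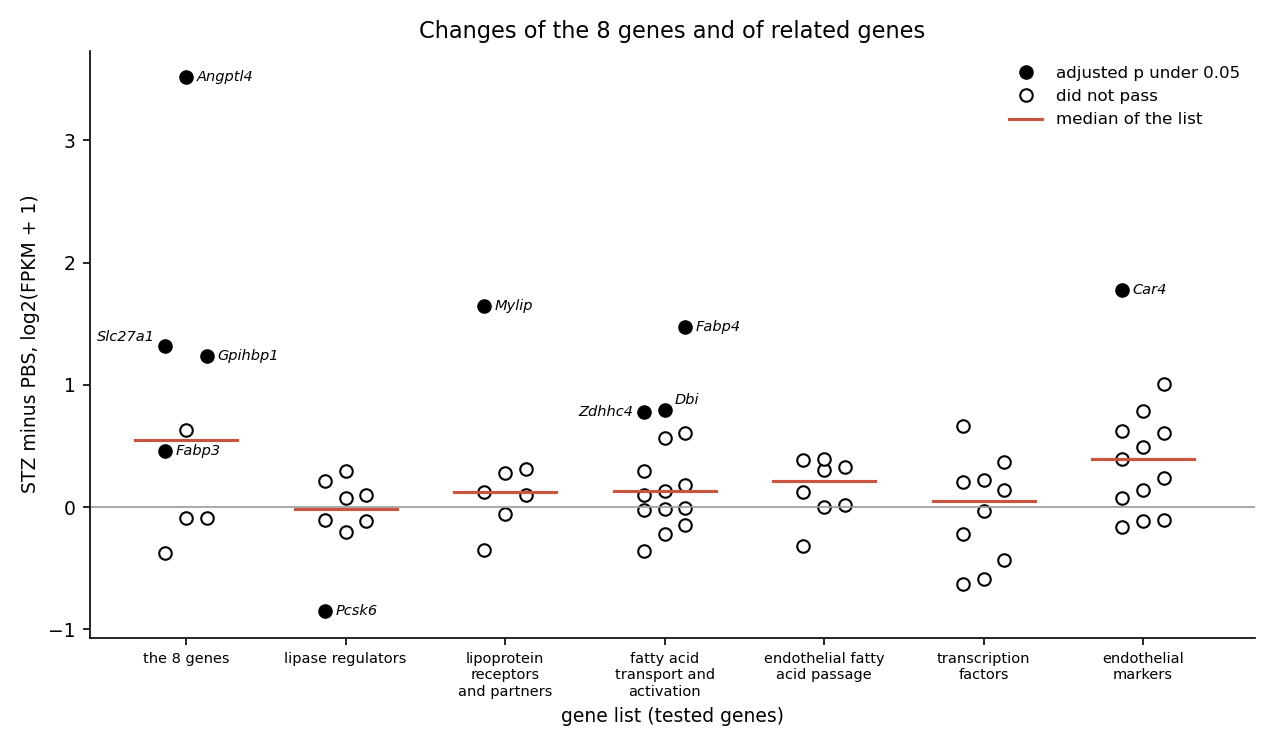
Change, STZ minus PBS, on the log2(FPKM + 1) scale for each tested member of the 8 genes, of 5 lists of related genes and of the endothelial markers; filled points passed at an adjusted p under 0.05 and are named, and red bars are medians. Angptl4 at 3.52 is the highest point shown, and Pcsk6 at -0.85 is the lowest.

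Of 8 genes that control the passage of fatty acids through the endothelium, all 8 were tested. Here 0 rose and 0 fell, beside 3.64% and 2.17% of all genes. The list had 6 positive changes, beside 6585 among the 11556 genes tested, and a median of 0.21. Vegfb, the muscle-derived growth factor of this list, was at 112 and 122 FPKM in PBS libraries 1 and 2 and at 108, 117 and 131 FPKM in STZ. The transcription factor Tcf15, a partner of Meox2 in heart endothelium, was at 12.9 and 15.2 FPKM in PBS and at 16.9, 15.3 and 20.7 FPKM in STZ.

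Of 10 transcription factors known to act on Angptl4 or Lpl, all 10 were tested. By limma 0 rose and 0 fell, beside 3.64% and 2.17% of all genes. The list had 5 positive changes, beside 6585 among the 11556 genes tested, and a median of 0.05. Klf15 was at 14.6 and 14.3 FPKM in PBS libraries 1 and 2 and at 25.6, 12.5 and 21.4 FPKM in STZ. Rxra, the partner of the peroxisome proliferator-activated receptors, was at 11.6 and 11.5 FPKM in PBS and at 13.9, 11.6 and 8.73 FPKM in STZ. Pparg, named after its values were seen, had the smallest adjusted p of this list (0.0507 by limma). Pparg was at 2.91, 2.88 and 2.11 FPKM in PBS libraries 1, 2 and 3 and at 4.39, 5.33 and 5.84 FPKM in STZ. Its relative Ppard, also named after its values were seen, lay the other way, at 3.94, 2.06 and 1.93 FPKM in PBS libraries 1, 2 and 3 and at 1.36, 1.66 and 1.51 FPKM in STZ, with groups that did not overlap (adjusted p = 0.13 by limma). For Ppara the change was -0.59 on the log2(FPKM + 1) scale (adjusted p = 0.357 by limma), with overlapping groups.

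Fat cells also express Lpl, Angptl4, Cd36 and Fabp4. Their defining markers were at or near 0: Lep and Ucp1 were listed at 0 in the 5 complete libraries, Adipoq was at 0.36 FPKM or less and Plin1 at 0.09 FPKM or less. Of 8 adipocyte markers 2 were tested, 1 rose and 0 fell, beside 3.64% and 2.17% of all genes. The 1 that rose was Cidea, a lipid droplet protein, from 17.7 ± 3.35 FPKM (SD, n = 2) to 43.4 ± 4.25 FPKM (SD, n = 3). Its rise was 1.25 ± 0.16 (SE; limma, adjusted p = 0.0169), a call lost without PBS library 1 or PBS library 2. The other 7 summed to 4.59 and 2.34 FPKM in PBS libraries 1 and 2 and to 1.91, 1.61 and 0.20 FPKM in STZ libraries 1, 2 and 3. Most of that sum is Cfd, and the 6 markers other than Cfd and Cidea summed to 0.88 and 0.60 FPKM in PBS and to 0.65, 0.84 and 0.02 FPKM in STZ, with overlapping groups. The part of fat cells in the changes above was not tested. Macrophages express Lpl and Cd36 too. Of 7 macrophage markers all were tested, 0 rose and 0 fell, beside 3.64% and 2.17% of all genes. The list had 1 positive change, beside 6585 among the 11556 genes tested, and a median of -0.20. The macrophage markers summed to 204 and 178 FPKM in PBS and to 135, 195 and 166 FPKM in STZ, mostly Lyz2 and the complement genes C1qa and C1qb. Adgre1, named after its values were seen, was at 3.27, 3.77 and 3.10 FPKM in PBS libraries 1, 2 and 3 and at 1.60, 2.34 and 1.5 FPKM in STZ, lower in every STZ library (adjusted p = 0.0668 by limma). Their part in the levels of Lpl and Cd36 was not tested.

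The genes most like Angptl4 over the 5 libraries, by Euclidean distance of log2(FPKM + 1) after centring each gene on its PBS mean, included Myh7 (0.948) and Cyp1a1 (0.959). Myh7 encodes the slow myosin heavy chain and Cyp1a1 an enzyme of xenobiotic metabolism. Cyp1a1 was at 1.80 and 1.53 FPKM in PBS libraries 1 and 2 and at 19.8, 25.5 and 23.5 FPKM in STZ libraries 1, 2 and 3, highest in the same STZ library as Angptl4. Those nearest to Gpihbp1 were Snrnp70 (0.222), Slc6a6 (0.238) and Mthfd2 (0.251). Slc6a6, the taurine transporter, was at 9.90, 9.70 and 8.12 FPKM in PBS libraries 1, 2 and 3 and at 22.1, 23.4 and 25.6 FPKM in STZ libraries 1, 2 and 3, highest in STZ library 3 as Gpihbp1 was. These genes were picked for likeness among 11556 over only 5 libraries.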

How the data were processed

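RNA of mouse myocardium was sequenced from poly(A)-selected libraries with a dUTP-marked second strand, per the labels' protocols. The deposited values are FPKM per gene, which the authors made with cutadapt 1.9, HISAT2 2.0.4 and StringTie 1.3.4d on GRCm38, per the submitters' processing notes; which annotation, strand setting or filter they used is not given in the sources used here. A large change in abundant genes moves every FPKM of that library, and reads of overlapping or near-identical genes could be shared. Low FPKM showed no constant step, so depth could not be recovered.

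Identifiers were matched to symbols and positions with GENCODE M21 (55141 matched, 260 did not). Libraries listing fewer than 50% of the genes were left out. The 11556 genes that reached 1 FPKM in 2 or more of the 5 libraries entered limma 3.58.1 (R 4.3.3; lmFit and eBayes with trend) as log2(FPKM + 1), where 1 is the pseudocount, in a two-sided test with no covariate since the labels give no batch, and with Benjamini-Hochberg adjustment. All adjusted p-values are from that test, and intervals are at 95%. The script was tested on simulated data. Ratios used exact permutation tests in scipy 1.17.1, and Python 3.11.15, pandas 2.3.3, numpy 2.4.6, the R package data.table (version 1.17.8) and biopython 1.88 handled tables and sequences.

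The 8 genes, the 5 lists of related genes and the 6 marker lists were chosen with earlier results of these data known. Of each list the genes that passed are named, with at most 4 others of the highest mean FPKM given as values; a few further list members given as values, such as Slc27a4, Pparg and Ppard, were chosen after their values were seen. For Angptl4 and Gpihbp1 the 3 tested genes nearest in pattern were taken, leaving out clone and model names. Some genes these rules take are not reported here. Alternatives were pseudocounts of 0.1 and 0.5, no low-value filter or one at 5 FPKM, quantile normalization, centring on the median, TPM, rescaling without mitochondrial and haemoglobin genes, eBayes without trend, robust eBayes, a replicate block, PBS library 3 added and each library left out, 17 in all.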

Additional observations from a re-analysis of the deposited data

How the results depend on the processing

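The count of genes passing, 4 of 8 higher in STZ, was 3 to 5 under the alternatives of pseudocount, 5 FPKM filter, scaling, variance model and added PBS library 3, and 1 with no filter on low values. With each library left out it ran from 1 (without PBS library 1 or 2, when Angptl4 alone passed) to 3. Labels give both groups the numbers 1 to 3. Deviations of same-numbered libraries correlated at 0.18, -0.05 and 0.15 over 4811 genes. Libraries 1 and 3 correlated best with their own number, and library 2 did not. The atrial gene Myl7 fell in the same order by number in both groups (262, 37.9 and 0.21 FPKM in PBS, 357, 73.7 and 0.28 FPKM in STZ). The main test did not take the numbers as pairs, and these values cannot settle whether they are. The replicate block was fitted without PBS library 3, so STZ library 3 had no partner. Its estimates rest on numbers 1 and 2 of each group, which leaves fewer libraries to judge the spread. With that block 0 of the 8 passed, Angptl4 at an adjusted p of 0.0537 by limma. The differences in log2 ratio were 3.53 for Angptl4 to Lpl, 1.02 for Gpihbp1 to Lpl and 0.73 for Gpihbp1 to the endothelial markers. These are the same as without STZ library 3. With a library left out, Lpl ran from -0.25 (without STZ library 2) to 0.076 (without STZ library 3). Lpl was also at 0.076 with the replicate block, where STZ library 3 adds nothing to the estimate, so this is the same result. In all other settings Lpl was negative. Why Lpl was low in STZ library 3 was not tested. Over the 17 alternatives Angptl4 ranged from 2.96 to 4.31 (passing in 16), Gpihbp1 from 1.10 to 1.35 (13), Slc27a1 from 1.22 to 1.43 (13), Fabp3 from 0.39 to 0.91 (8) and Cd36 from 0.53 to 0.70 (4). The count of all genes passing was 672, and 81 with no filter (26229 genes tested), 64 with the replicate block, 1169 with PBS library 3 added, 24 without PBS library 1, 29 without PBS library 2, 348 without STZ library 1, 392 without STZ library 2 and 398 without STZ library 3. Of those calls 62.6% were higher in STZ, against 48.5% after centring, 50.2% after quantile normalization and 73.1% as TPM, which moved the median of all genes to 0.13. Of the 8 list and marker genes that passed, 0 did so without PBS library 1 or without PBS library 2, 1 with no filter and 1 with the replicate block. Counting depth is unknown, so differences at low FPKM, as for Lmf1, have no counting error.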
